A study of Homo sapiens with 70 samples.

Results

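The comparison described here set induced cells with a guide against ZBTB11 beside induced control cells, 5 days after doxycycline was added. Its members were the day 5 libraries with doxycycline (DOX), taken by their labels: 3 of sgZBTB11 #1 and 3 of sgZBTB11 #2 against 3 of sgNS, so 9 of the 70 libraries of the series. The cells were MIA PaCa-2, a long-established cancer line from the pancreatic duct, in a form resistant to the cancer drug sotorasib. All 9 libraries came from cells with DOX-inducible dCas9-KRAB, a Cas9 that cannot cut DNA fused to a repressor domain, and differed in the guide RNA that directs it. The guides sgZBTB11 #1 and sgZBTB11 #2 are directed at ZBTB11, and sgNS is the control guide. The labels do not say whether a line was 1 clone or a pool, or whether replicate libraries were grown separately. The p-values therefore reflect library-to-library spread alone, and this may be technical.

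ZBTB11 is a zinc finger protein of the BTB family. In mouse embryonic stem cells it has been described as acting with the ETS factor GABP on nuclear genes of complex I and of the mitochondrial ribosome. The respiratory chain is built from subunits encoded in the nucleus, which are imported, and from a few encoded by mitochondrial DNA and made on mitochondrial ribosomes. Tetracyclines such as doxycycline can themselves slow mitochondrial translation. The 6 guide libraries and the 3 sgNS libraries both had doxycycline, so an effect of the drug that all lines share cancels in the difference, whereas standing differences between the lines do not. For that reason the 8 DMSO libraries of day 5, 5 of the guide lines and 3 of sgNS, are given beside the main results.

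Total counts of the 9 libraries were 12747313 to 16953797. KRT8, KRT18 and VIM were expressed in all 9, CDKN2A had a count of 0 in all 9 and CDH1 stayed at or under 0.269 CPM (counts per library size after TMM scaling), as the line is known for. Of 8 leukocyte markers, 7 stayed under 1 CPM in all 9 libraries, as did 6 of 7 endothelial and 5 of 8 fibroblast markers. The summed leukocyte markers were 1.86 to 2.53 CPM in the guide libraries and 1.85 to 2.30 CPM in the sgNS libraries. The summed fibroblast markers, nearly all from COL1A2, were 630 to 656 CPM in the guide libraries and 624 to 635 CPM in the sgNS libraries. The summed endothelial markers were 38.4 to 44.5 CPM in the guide libraries and 22.4 to 25.3 CPM in the sgNS libraries, and CDH5 made up nearly all of that sum, while PECAM1, VWF, KDR, TEK, CLDN5 and ERG stayed at or under 0.190 CPM.

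ZBTB11 (chr3:101648889-101677132, GRCh38.p14, minus strand) was lower in every induced guide library than in any induced control library. It was at 35.9, 33.2 and 32.4 CPM in sgZBTB11 #1 DOX libraries and 26.5, 25.8 and 26.7 CPM in sgZBTB11 #2 DOX libraries, against 48.7, 43.9 and 49.8 CPM in sgNS DOX libraries. The 3 groups did not overlap, and sgZBTB11 #2 held the lowest values. The log2 difference was -0.67 (SE 0.050, adjusted p = 3.50e-16, edgeR quasi-likelihood test). It was -0.49 for sgZBTB11 #1 and -0.85 for sgZBTB11 #2, and the difference between the guides of -0.36 also passed the test (adjusted p = 4.01e-05). In DMSO the level was 43.5 and 46.8 CPM in sgZBTB11 #1 DMSO libraries and 50.6, 48.3 and 48.4 CPM in sgZBTB11 #2 DMSO libraries, against 53.8, 48 and 56.2 CPM in sgNS DMSO libraries. That standing difference was -0.17 (adjusted p = 0.00425), and what remained after subtracting it, called the net difference here, was -0.50 (SE 0.068, adjusted p = 5.97e-08). Over time the induced difference was -0.13 (5 hr), -0.46 (day 1), -0.81 (day 3) and -0.67 (day 5), and it passed the test each time. These values are not net of DMSO, and the 5 hr value was smaller in size than the day 5 DMSO difference of -0.17.

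Guides for dCas9-KRAB are usually placed near the start of a gene. The guide sequences were not analysed here, and the 250 bases before the RefSeq start of ZBTB11 (chr3:101677133-101677382, minus strand, GRCh38.p14) are given 5′ to 3′ as the region such a guide would bind or lie beside. Capitals mark CCGGAAG or its reverse complement CTTCCGG, a core that ETS factors such as GABP bind, and the ZBTB11 promoter held it once.
ZBTB11: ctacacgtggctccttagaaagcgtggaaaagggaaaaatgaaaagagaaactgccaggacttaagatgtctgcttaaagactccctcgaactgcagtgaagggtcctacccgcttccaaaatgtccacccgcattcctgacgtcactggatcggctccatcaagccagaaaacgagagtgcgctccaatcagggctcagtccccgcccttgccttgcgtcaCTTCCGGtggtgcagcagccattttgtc

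The nearest genes with a symbol on either side were examined because dCas9-KRAB can also lower neighbours of its target. TRMT10C, which makes a methyl mark on mitochondrial tRNA, was at 15.4, 15.9 and 17.7 CPM in sgZBTB11 #1 DOX libraries and 14.2, 14.7 and 15.04 CPM in sgZBTB11 #2 DOX libraries, against 20.01, 19.2 and 19.2 CPM in sgNS DOX libraries. Its log2 difference was -0.33 (SE 0.067, adjusted p = 7.36e-05) and its DMSO difference -0.01. RPL24, a protein of the large ribosomal subunit, differed by -0.29 (adjusted p = 2.24e-15), against +0.10 in DMSO. Genes of the cytosolic ribosome as a list had 76 of 79 lower, with medians of -0.38 in DOX and 0.11 in DMSO. PCNP, which lies between TRMT10C and ZBTB11, differed by -0.07 and did not pass (adjusted p = 0.243), nor did the pseudogenes RPS18P5 and PDCL3P4. The antisense gene ZBTB11-AS1 overlaps the start of ZBTB11 and was at 1.27 to 2.16 CPM in guide DOX libraries, against 1.84 to 2.74 CPM in sgNS DOX libraries, which overlap. The strand setting is not given in the sources used here, so reads of ZBTB11 and ZBTB11-AS1 in their shared stretch cannot be told apart.

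**Figure D1:**
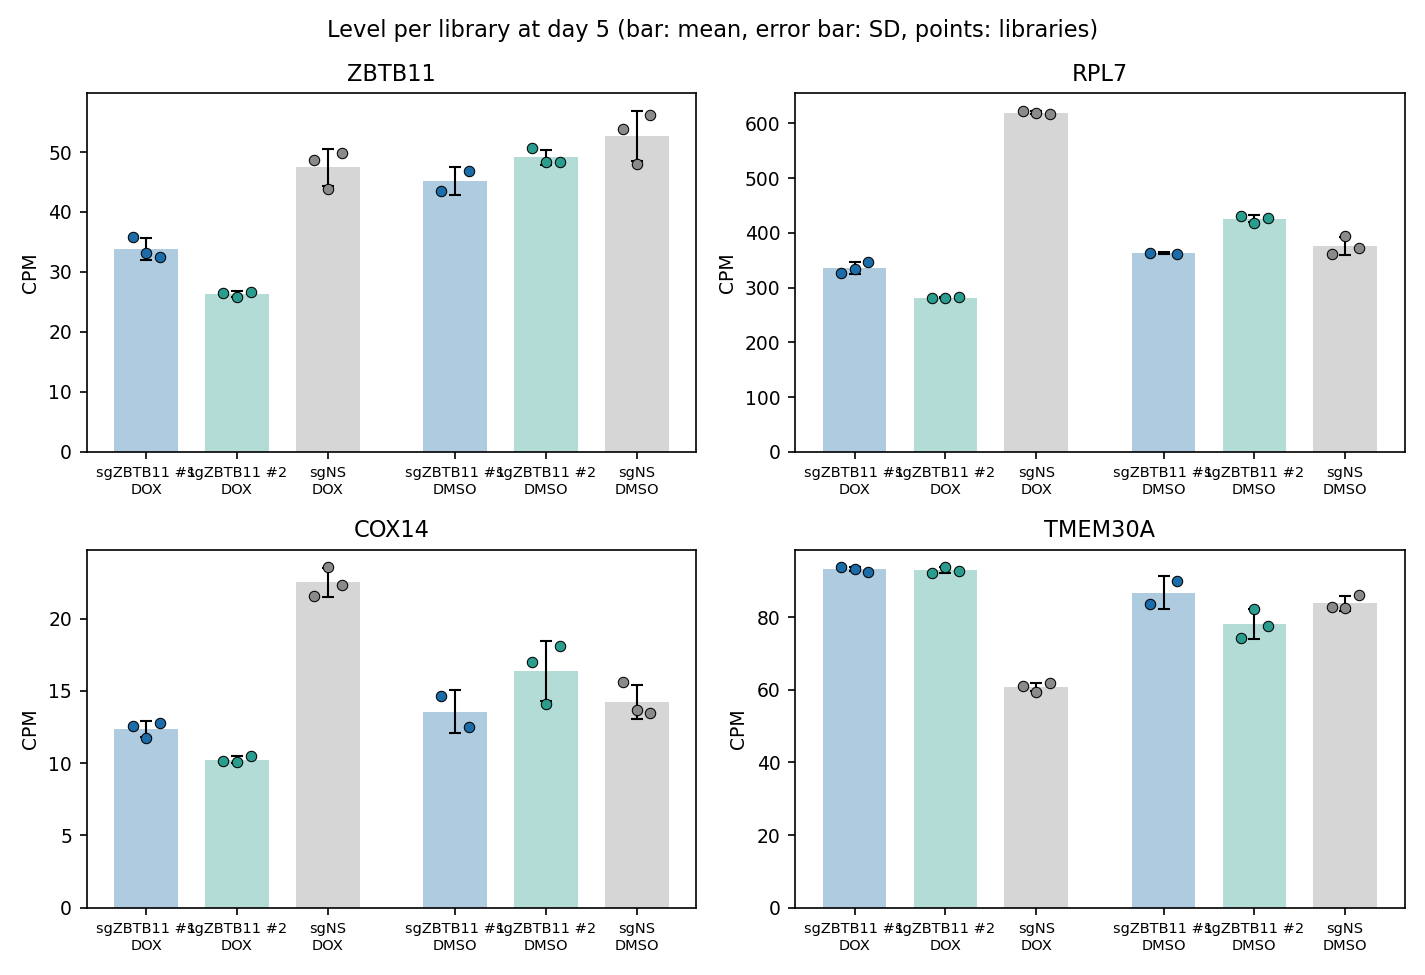
Level in CPM (TMM-scaled) of ZBTB11, RPL7, COX14 and TMEM30A in each day 5 library, by line and treatment, where bars are means, error bars are SD over 2 or 3 libraries and points are libraries. ZBTB11 stands at 25.8 to 35.9 CPM in the 6 guide DOX libraries and at 43.9 to 49.8 CPM in the 3 sgNS DOX libraries. For RPL7, COX14 and TMEM30A, picked for large differences from the sgNS DOX libraries, these libraries stand apart from all 5 other groups.

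Across the transcriptome, 4896 of 16809 genes passed an adjusted p of 0.05 in the induced guides, which is 29.1%. Of these, 2218 were higher (13.2%) and 2678 lower (15.9%). Most differences were small: the absolute log2 difference of the genes that passed had a median of 0.25 and quartiles of 0.17 and 0.37, and 114 genes (0.678%) passed with an absolute value of at least 1. Whether or not they passed the test, 1736 genes (10.3%) had all 6 guide libraries above all 3 sgNS libraries, and 2193 (13%) had all 6 below. Against sgNS, sgZBTB11 #1 gave 4271 calls (25.4%) and sgZBTB11 #2 gave 4484 (26.7%), and these 2 sets share the same 3 sgNS libraries. The 2 guides differed from each other at 1829 genes (10.9%), with 4.98% of all genes higher and 5.9% lower in sgZBTB11 #2. On log2(TPM + 1) with limma, 2132 genes were higher and 1544 lower. On that scale the median of all genes tested stood at 0.04 in DOX, -0.15 in DMSO and 0.19 net, so values on it are read against those medians.

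Part of the induced difference stood beside a difference that the lines had without induction. In DMSO, 3960 genes (23.6%) differed between the guide lines and sgNS, with 11.1% of all genes higher and 12.4% lower, and the DOX and DMSO comparisons share no library. Of the 2218 genes higher in induced guides, 622 were also higher in DMSO, which is 28% of the DOX list and 33.2% of the DMSO list, and 253 were lower in DMSO. Of the 2678 genes lower in induced guides, 893 were also lower in DMSO, which is 33.3% of the DOX list and 42.7% of the DMSO list, and 303 were higher in DMSO. The net test, with the DMSO difference subtracted, was passed by 3230 genes (19.2%), with 8.95% of all genes higher and 10.3% lower. Within a line, DOX against DMSO changed 191 genes in sgZBTB11 #1 (1.14%), 1513 in sgZBTB11 #2 (9%) and 2915 in sgNS (17.3%), so the control line held the most calls of the 3.

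The 10 largest increases all passed the test in DMSO too. COL6A3, a chain of type VI collagen, was at 13.7, 13.3 and 14.4 CPM in sgZBTB11 #1 DOX libraries and 6.37, 8.503 and 8.06 CPM in sgZBTB11 #2 DOX libraries, against 1.43, 1.29 and 1.39 CPM in sgNS DOX libraries. The log2 difference was 2.88 (SE 0.147, adjusted p = 1.46e-22) and the DMSO difference was 2.82. DKK1, a secreted antagonist of WNT signalling, was higher by 1.41 in DOX and by 1.49 in DMSO, PIEZO2, a mechanically gated channel, by 1.40 and 1.60, and COL3A1, a fibrillar collagen chain, by 0.96 and 0.98. AKR1B1, aldose reductase, was at 209 to 252 CPM in guide DOX libraries, against 124 to 131 CPM in sgNS DOX libraries, a difference of 0.86 in DOX and 1.05 in DMSO. CDH5, the cadherin of endothelial junctions, differed by 0.84 and 0.69. Of the 10 largest increases, LINC00370 also passed the net test upward (net 0.47, adjusted p = 2.92e-06), AKR1B1 passed it downward (net -0.19) and COL6A3, DKK1, PIEZO2, RYR2, COL3A1, CDH5, CNNM1 and SBK2 did not pass it.

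The largest decreases fell into 2 kinds. DHRS2, a short-chain dehydrogenase, was at 6.94, 7.97 and 6.89 CPM in sgZBTB11 #1 DOX libraries and 5.15, 5.79 and 5.31 CPM in sgZBTB11 #2 DOX libraries, against 29.9, 32.2 and 29.1 CPM in sgNS DOX libraries. Its log2 difference was -2.27 (SE 0.072, adjusted p = 3.65e-31), the same as in DMSO (-2.27). CFI, complement factor I, differed by -1.55 in DOX and -1.53 in DMSO, TNFSF18, a ligand of the TNF family, by -1.25 and -1.24, and SERPINA5, a serine protease inhibitor, by -1.04 and -0.78. The other kind had little difference in DMSO. RPL7, of the large ribosomal subunit, was at 326, 334 and 347 CPM in sgZBTB11 #1 DOX libraries and 280.1, 282 and 283 CPM in sgZBTB11 #2 DOX libraries, against 623, 619 and 617 CPM in sgNS DOX libraries. Its difference was -1.01 (SE 0.023, adjusted p = 2.80e-37) in DOX and 0.06 in DMSO. COX14, an assembly factor of cytochrome c oxidase, differed by -0.99 in DOX and 0.07 in DMSO, and the pseudogene RPL23AP42 by -1.07 and 0.14. Counts of RPL7, RPS29, the pseudogenes RPL23AP42 and H3P6 and SULT1A1, which has close paralogs, are estimates that depend on how reads were split between near-identical copies.

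**Figure D2:**
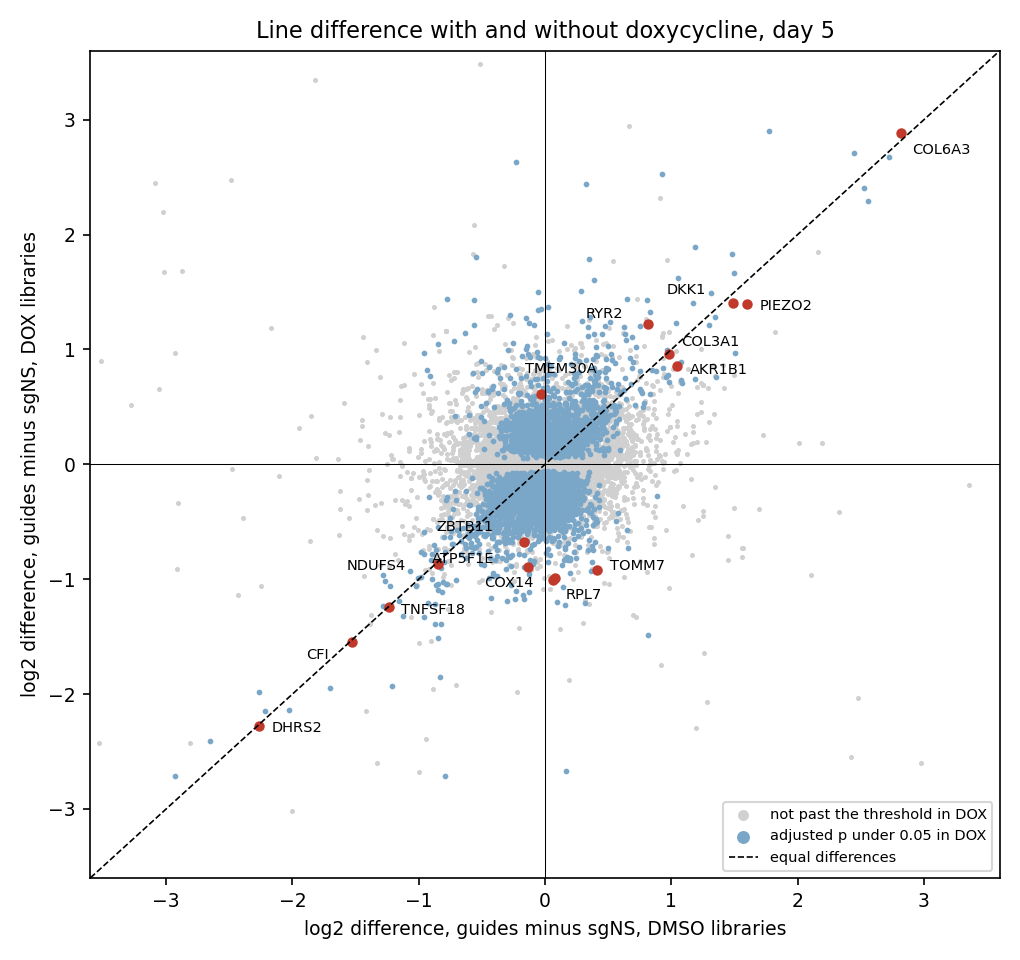
Log2 difference of the guide lines over sgNS for each of 16809 genes in DMSO libraries (x axis) and in DOX libraries (y axis), with genes past an adjusted p of 0.05 in DOX in blue and 16 genes in red, and 39 genes outside the axes. COL6A3, DHRS2, CFI and TNFSF18 lie near the dashed line of equal differences, whereas RPL7, COX14, TOMM7 and TMEM30A lie near an x value of 0 or to its other side.

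Genes that passed in DOX, passed net in the same direction and did not pass in DMSO were described next. The largest increases among them were in PDLIM5, which anchors signalling proteins at actin, the readthrough gene MSANTD3-TMEFF1, IFFO2, the protocadherin PCDHAC2, NYAP1, TMEM30A, SLC5A3 and the readthrough gene ATP5MF-PTCD1. TMEM30A, a partner subunit of phospholipid flippases, was at 93.7, 93.3 and 92.5 CPM in sgZBTB11 #1 DOX libraries and 92.1, 93.9 and 92.8 CPM in sgZBTB11 #2 DOX libraries, against 61.1, 59.5 and 61.8 CPM in sgNS DOX libraries. The difference was 0.61 (SE 0.036, adjusted p = 2.78e-20), and both guides gave 0.61. In DMSO, TMEM30A was at 74.1 to 89.98 CPM in guide DMSO libraries, against 82.4 to 86.1 CPM in sgNS DMSO libraries, so the sgNS DOX libraries were the lowest of all 17. SLC5A3, the sodium-coupled importer of myo-inositol, was at 168 to 221 CPM in guide DOX libraries, against 121 to 134 CPM in sgNS DOX libraries, with a difference of 0.60 and a DMSO difference of -0.08. Levels of the 2 readthrough genes and of PCDHAC2, which shares exons with its gene cluster, depend on how shared reads were assigned.

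The largest decreases of this kind were in RPL23AP42, COX14, PXMP2, MRPL33, the long noncoding RNA INKILN, POLE4, the pseudogene GCSHP5 and AVPI1. COX14 was at 12.6, 11.7 and 12.8 CPM in sgZBTB11 #1 DOX libraries and 10.2, 10.1 and 10.5 CPM in sgZBTB11 #2 DOX libraries, against 21.6, 23.6 and 22.4 CPM in sgNS DOX libraries. MRPL33, of the large mitochondrial ribosomal subunit, was at 18.1, 21.9 and 18.3 CPM in sgZBTB11 #1 DOX libraries and 15.1, 17.3 and 18.1 CPM in sgZBTB11 #2 DOX libraries, against 33.1, 33.2 and 33.1 CPM in sgNS DOX libraries. In both cases every guide library lay under every sgNS library, as held for 13% of all genes, and picking the largest differences favours this. POLE4, a histone-fold subunit of DNA polymerase epsilon, differed by -0.82 in DOX and 0.20 in DMSO, and PXMP2, a peroxisomal membrane channel, by -0.89 and -0.16. For the 8 increases and 8 decreases alike, the DOX against DMSO change within sgNS ran opposite to the net difference: it was -0.57 to -0.26 for the increases and 0.37 to 0.91 for the decreases. The rule that picked these genes used the same sgNS libraries, so it favours such an opposite change. Within sgZBTB11 #1 it was -0.08 to 0.59 for the increases and -0.34 to 0.10 for the decreases, and within sgZBTB11 #2 0.08 to 0.55 and -0.88 to -0.20.

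**Figure D3:**
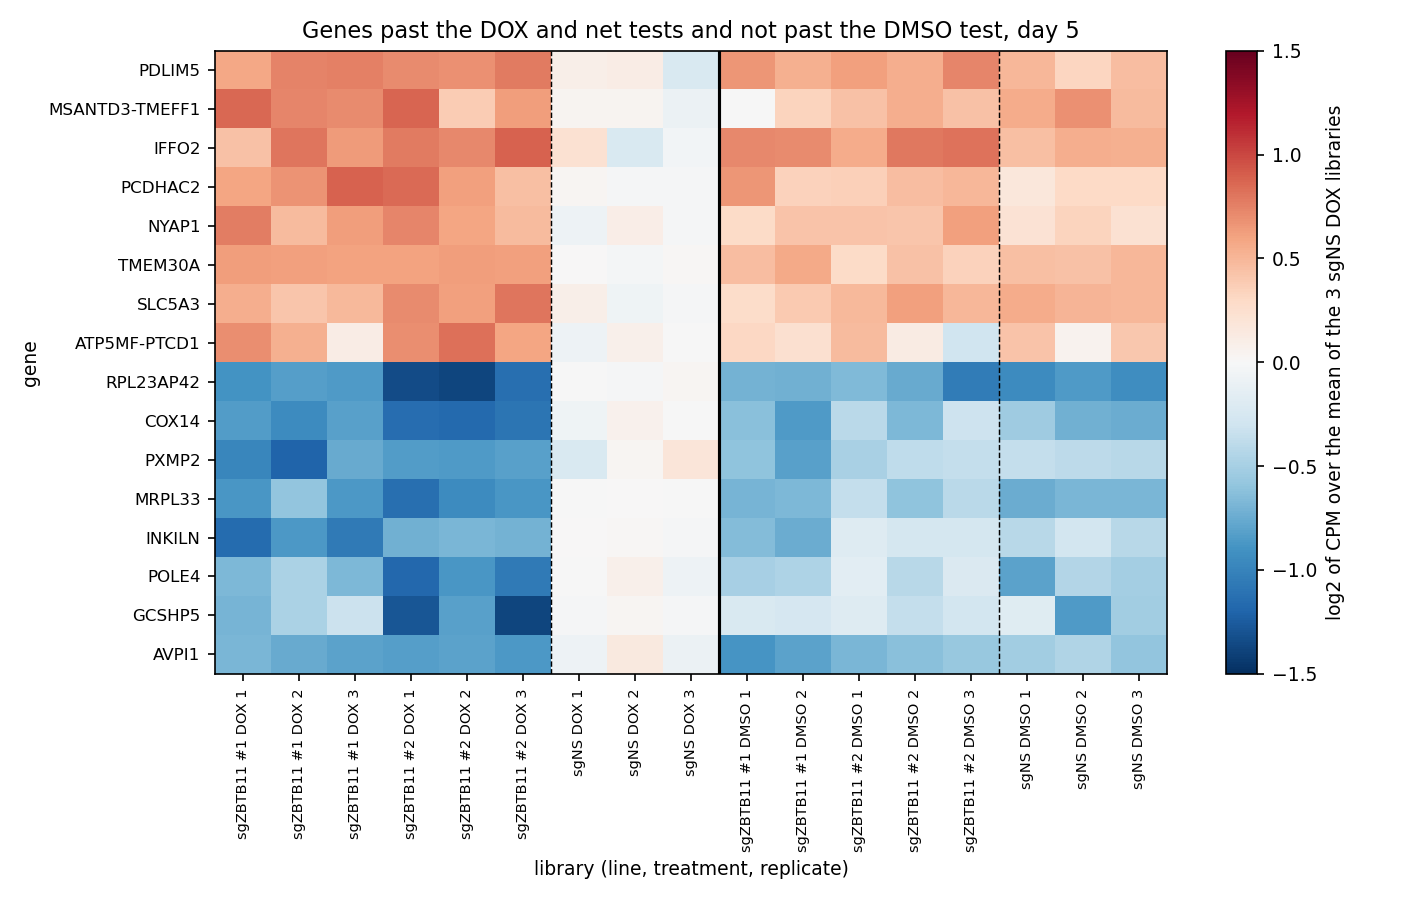
Log2 of the CPM of 16 genes in each of the 17 day 5 libraries over the mean of the 3 sgNS DOX libraries, with colour running from -1.5 (blue) to 1.5 (red), DOX libraries left of the solid line and DMSO libraries right of it. The 8 genes at the top are above 0 and the 8 at the bottom below 0 in all 6 guide DOX libraries, and the sgNS DMSO libraries show the same sign as those guide libraries. The genes were picked on these same libraries, which favours both patterns.

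Nuclear genes of complexes I, III and IV and of ATP synthase were lower in the induced guides than in induced sgNS. The messages of mitochondrial DNA were higher. Of 37 complex I subunits, 31 were lower and 1 higher, with a median log2 difference of -0.37, against 15.9% lower, 13.2% higher and a median of 0.00 among all genes tested. NDUFS4, an accessory subunit next to the NADH-oxidising module, was at 18.1, 14.99 and 18.5 CPM in sgZBTB11 #1 DOX libraries and 19.9, 20.1 and 21.6 CPM in sgZBTB11 #2 DOX libraries, against 36.2, 33.3 and 33.1 CPM in sgNS DOX libraries. Its difference was -0.86 (SE 0.058, adjusted p = 5.88e-18), and in DMSO it was -0.85. NDUFS6 (-0.62 in DOX, -0.68 in DMSO) and NDUFB11 (-0.60 and -0.55) likewise differed in DMSO. NDUFB6 differed by -0.69 in DOX and -0.09 in DMSO, and its net difference of -0.61 passed (adjusted p = 2.64e-08). Over the list, the median was -0.10 in DMSO, where 18 subunits were lower and 5 higher, and the median net difference was -0.10, with 17 lower and none higher (10.3% of all genes were lower net). On log2(TPM + 1) the median net difference of complex I subunits was 0.10, under the 0.19 of all genes, and with the trend by transcript length removed from the counts it was -0.01. Of 19 complex I assembly factors, 11 were lower, with a median of -0.14, among them DMAC1 (-0.68), NDUFAF2 (-0.45), TMEM70 (-0.40) and NDUFAF4 (-0.36). The calls of TMEM70 and NDUFAF4 were lost in at least 1 alternative run. The number of lower assembly factors was 7 with DESeq2, 5 (with 2 higher) with the length trend removed and 3 (with 2 higher) on log2(TPM + 1).

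Of 15 nuclear genes of complex III, 12 were lower and none higher, with a median of -0.27. UQCR11 was at 39.3, 36.5 and 36.5 CPM in sgZBTB11 #1 DOX libraries and 37.7, 36.01 and 42.9 CPM in sgZBTB11 #2 DOX libraries, against 67.8, 71.3 and 69.8 CPM in sgNS DOX libraries, a difference of -0.86 (SE 0.051, adjusted p = 4.74e-15), of which -0.51 was present in DMSO. UQCRH, the hinge protein that binds cytochrome c1, differed by -0.42 in DOX and by +0.13 in DMSO. Of 34 nuclear genes of complex IV, 21 were lower and 2 higher, with a median of -0.25. Behind COX14, COX5A (-0.72), COX8A (-0.58) and COX7A2 (-0.58) differed most, and their DMSO differences were -0.58, -0.40 and -0.18. Within the lines COX7A2 changed with DOX by -0.10 in sgZBTB11 #1, -0.24 in sgZBTB11 #2 and 0.23 in sgNS. Of 20 nuclear genes of ATP synthase, 19 were lower and none higher, with a median of -0.27. ATP5F1E, the epsilon subunit, was at 466, 472 and 480 CPM in sgZBTB11 #1 DOX libraries and 454, 464 and 465 CPM in sgZBTB11 #2 DOX libraries, against 851, 868 and 889 CPM in sgNS DOX libraries. It differed by -0.90 (SE 0.023, adjusted p = 1.24e-34) in DOX and by -0.14 in DMSO.

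The 13 messages of mitochondrial DNA went the other way: 11 were higher and none lower, with a median of 0.13. MT-ND1, a core subunit of complex I, was at 11720, 11790 and 11600 CPM in sgZBTB11 #1 DOX libraries and 11020, 11030 and 10400 CPM in sgZBTB11 #2 DOX libraries, against 10100, 10530 and 9977 CPM in sgNS DOX libraries, where the groups overlap. Its difference was 0.14 (SE 0.022, adjusted p = 6.55e-07). The same 13 messages were further apart in DMSO, with a median of 0.46 and 12 higher, so the median net difference was -0.32, with 12 lower. All counts on mitochondrial DNA together were 32.95% ± 0.137 and 31.4% ± 0.0666 of counts in sgZBTB11 #1 and sgZBTB11 #2 DOX libraries, against 29.5% ± 0.2196 in sgNS DOX libraries (SD, n = 3 each). In DMSO they were 33.6% ± 0.120 (n = 2) and 31.3% ± 0.288 (n = 3) in the guide lines and 26.3% ± 0.240 (n = 3) in sgNS. The induced guides differed in this list too: 11 of the 13 were lower in sgZBTB11 #2 than in sgZBTB11 #1, with a median of -0.17.

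The lists of genes that make and import mitochondrial proteins held more lower than higher members. Of 82 proteins of the mitochondrial ribosome, 54 were lower and none higher, with a median of -0.19 in DOX, -0.03 in DMSO and -0.16 net (0.06 net on log2(TPM + 1), against 0.19 for all genes, and -0.08 net with the length trend removed). MRPL33 (-0.88), MRPL36 (-0.67), MRPL48 (-0.66) and MRPL54 (-0.62) differed most, and in DMSO they differed by 0.13, 0.06, -0.05 and -0.58. Of 49 genes of mitochondrial DNA expression and tRNA charging, 19 were lower and 1 higher, with a median of -0.06, and on log2(TPM + 1) 8 were lower and 6 higher. Of 38 genes of mitochondrial protein import, 19 were lower and 3 higher, with a median of -0.13. TOMM7, a small subunit of the outer membrane translocase that stabilises PINK1, was at 110, 124 and 113 CPM in sgZBTB11 #1 DOX libraries and 81.99, 83.4 and 80.9 CPM in sgZBTB11 #2 DOX libraries, against 179.9, 193 and 181 CPM in sgNS DOX libraries. It differed by -0.92 (SE 0.039, adjusted p = 1.11e-15) in DOX and by +0.41 in DMSO, so its net difference was -1.34. Coenzyme Q synthesis had 2 of 13 genes lower, COQ3 (-0.56) and COQ2 (-0.36), which is near the share of all genes. Iron-sulfur cluster assembly had 10 of 18 lower, but 6 with DESeq2, without the low-count filter, with the length trend removed, on log2(TPM + 1) or without sgNS DOX replicate 3, and 5 with the length and GC trends removed. The TCA cycle and pyruvate entry had 19 of 34 lower and 2 higher, with a median of -0.20, and MDH2, malate dehydrogenase of the matrix, was at 54.7 to 59.1 CPM in guide DOX libraries, against 82.99 to 85.6 CPM in sgNS DOX libraries, a difference of -0.55 that was 0.01 in DMSO.

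The promoters of 5 lower genes are given for the same 250 bases before the RefSeq start, 5′ to 3′, with CCGGAAG or CTTCCGG in capitals: COX14 (chr12:50111986-50112235, plus strand), MRPL33 (chr2:27771469-27771718, plus), UQCR11 (chr19:1605463-1605712, minus), ATP5F1E (chr20:59032336-59032585, minus) and RPS29 (chr14:49598711-49598960, minus), all GRCh38.p14. COX14, MRPL33, UQCR11 and ATP5F1E had the largest decreases of complex IV, the mitochondrial ribosome, complex III and ATP synthase, and RPS29 the largest of the cytosolic ribosome behind RPL7, whose promoter is not used here. They were chosen with their counts of the core known.
COX14: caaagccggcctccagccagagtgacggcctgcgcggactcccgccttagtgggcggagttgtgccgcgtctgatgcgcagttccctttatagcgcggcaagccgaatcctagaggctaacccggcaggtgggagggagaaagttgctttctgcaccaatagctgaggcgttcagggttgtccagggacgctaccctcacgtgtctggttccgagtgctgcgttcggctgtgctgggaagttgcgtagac
MRPL33: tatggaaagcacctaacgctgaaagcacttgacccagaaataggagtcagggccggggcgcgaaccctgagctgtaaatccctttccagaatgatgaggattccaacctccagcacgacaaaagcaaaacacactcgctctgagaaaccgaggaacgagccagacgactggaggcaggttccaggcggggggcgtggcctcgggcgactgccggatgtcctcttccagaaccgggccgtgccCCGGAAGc
UQCR11: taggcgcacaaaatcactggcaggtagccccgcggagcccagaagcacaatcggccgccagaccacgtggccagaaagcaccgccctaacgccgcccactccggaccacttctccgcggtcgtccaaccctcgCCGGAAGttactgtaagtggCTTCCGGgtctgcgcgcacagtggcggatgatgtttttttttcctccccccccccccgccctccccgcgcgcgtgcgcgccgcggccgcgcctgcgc
ATP5F1E: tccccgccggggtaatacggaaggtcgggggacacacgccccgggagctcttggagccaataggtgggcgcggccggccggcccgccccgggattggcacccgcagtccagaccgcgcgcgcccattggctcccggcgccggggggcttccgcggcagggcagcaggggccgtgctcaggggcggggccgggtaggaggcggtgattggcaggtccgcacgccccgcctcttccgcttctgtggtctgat
RPS29: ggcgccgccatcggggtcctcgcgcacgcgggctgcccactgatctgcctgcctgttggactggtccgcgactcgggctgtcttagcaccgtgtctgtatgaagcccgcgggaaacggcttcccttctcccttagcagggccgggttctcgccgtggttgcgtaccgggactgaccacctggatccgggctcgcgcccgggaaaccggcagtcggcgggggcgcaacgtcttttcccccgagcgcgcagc
UQCR11 held the core 2 times and MRPL33 once, and COX14, ATP5F1E and RPS29 did not hold it. The core was searched on both strands and stood in 8.82% of all 27305 RefSeq promoters of this length and in 15.9% of the 11146 that belonged to tested genes. It stood in 20.7% of promoters of genes lower in induced guides, in 13.2% of those of higher genes and in 15.1% of those of genes that did not pass. By list, 31.1% of 74 promoters of the mitochondrial ribosome held it, 32.3% of 31 of complex IV, 33.3% of 12 of complex III, 28.6% of 63 of the cytosolic ribosome, 18.8% of 16 of ATP synthase and 15.6% of 32 of complex I subunits. These shares describe letters in a window and no binding was measured.

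Of the lists described, the cytosolic ribosome had the largest share of members lower (96.2%). Of 79 members, 76 were lower and none higher, and 74 had all 6 guide libraries below all 3 sgNS libraries (13% of all genes). The median was -0.38, with -0.29 for sgZBTB11 #1 and -0.49 for sgZBTB11 #2, and 64 of the 79 were lower in sgZBTB11 #2 than in sgZBTB11 #1 (5.9% of all genes). RPS27A, made as a fusion with ubiquitin, was at 248, 263 and 259.6 CPM in sgZBTB11 #1 DOX libraries and 215, 223 and 222 CPM in sgZBTB11 #2 DOX libraries, against 429, 414 and 424 CPM in sgNS DOX libraries. The DMSO difference of the list ran the other way, with a median of 0.11, 50 higher and 17 lower, but on log2(TPM + 1) its median was -0.07, against -0.15 for all genes. Within the lines, the list had a median DOX against DMSO change of -0.09 with sgZBTB11 #1, of -0.17 with sgZBTB11 #2 and of 0.33 with sgNS, where 79 of 79 were higher (8.87% of all genes). Ribosomal proteins took 5.74% ± 0.0594 of counts in sgZBTB11 #1 DOX and 5.18% ± 0.0408 in sgZBTB11 #2 DOX, against 6.93% ± 0.0421 in sgNS DOX (SD, n = 3 each), and 5.998%, 5.804% and 5.916% in the DMSO libraries of the same 3 lines. In these counts the sgNS DOX libraries stood above the other 5 groups.

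**Figure D4:**
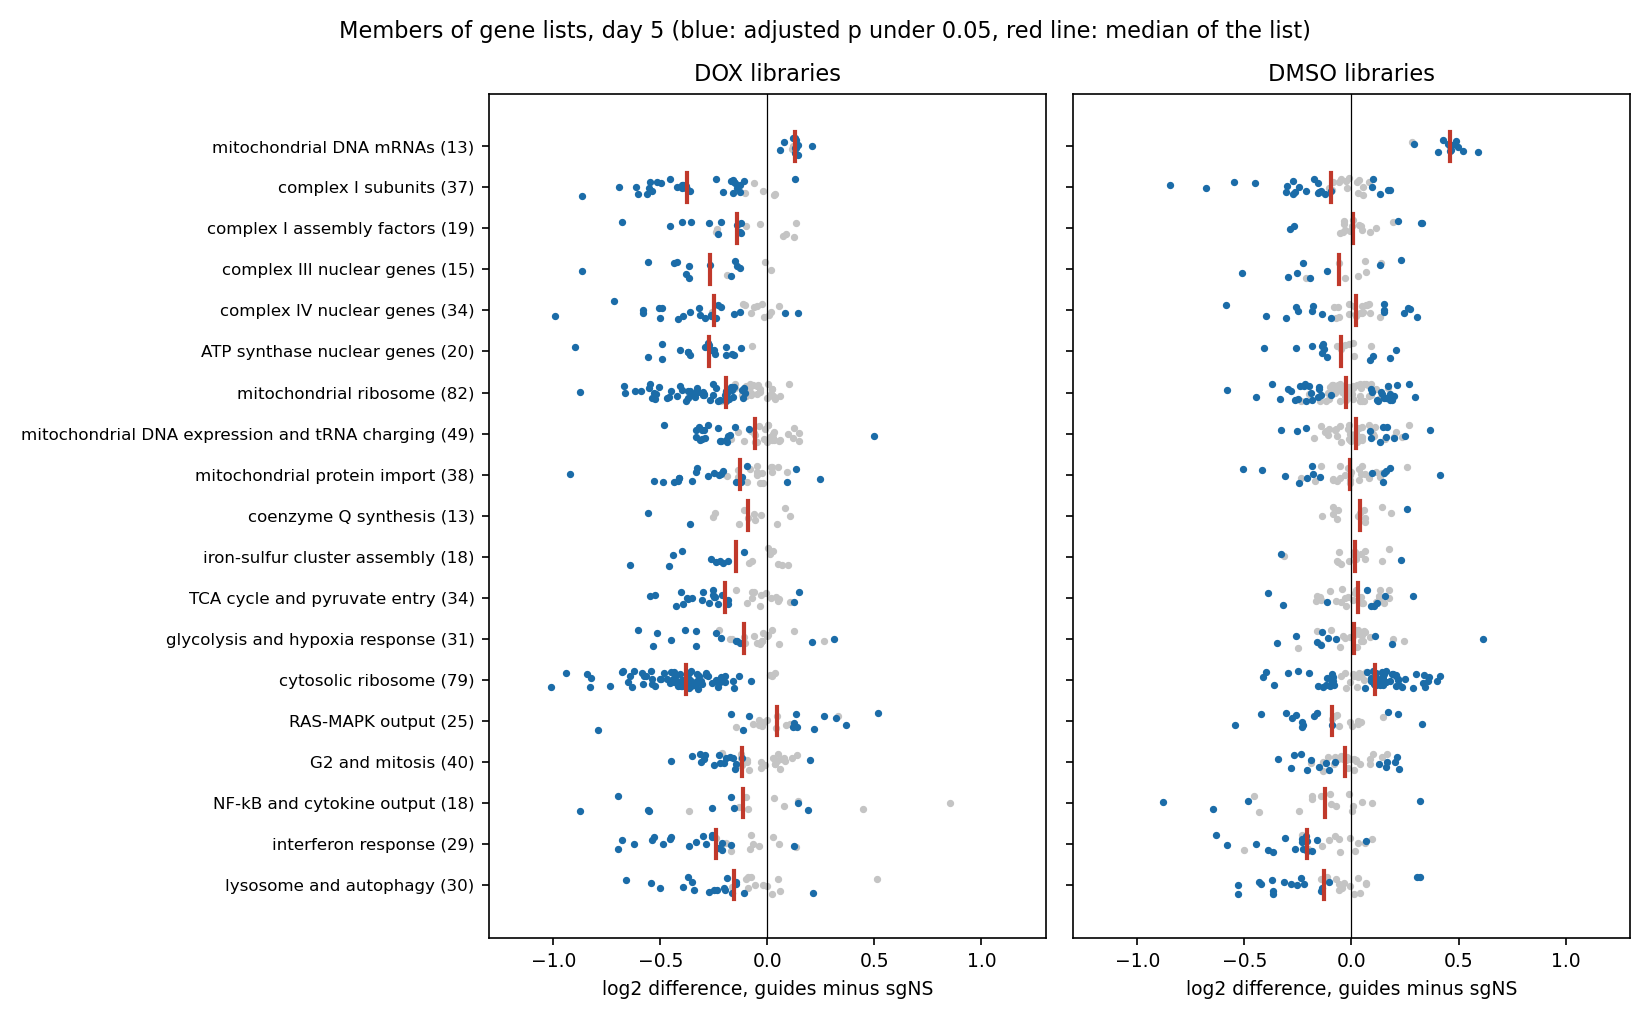
Log2 difference of the guide lines over sgNS for each tested member of 19 gene lists, in DOX libraries (left) and DMSO libraries (right), with members past an adjusted p of 0.05 in blue, others in grey, the median of the list as a red line and the number of tested members in brackets. In DOX the medians of the nuclear mitochondrial lists lie at -0.37 to -0.06 and that of the cytosolic ribosome at -0.38, whereas in DMSO the cytosolic ribosome lies at 0.11 and the messages of mitochondrial DNA at 0.46.

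The difference followed transcript length, and most members of the lists above are short transcripts. Length was taken as the ratio of counts to TPM, relative to the median of genes tested, and was 0.23 for the median cytosolic ribosomal protein gene, 0.27 for complex I subunits and 0.31 for ATP synthase. In the shortest 10% of all genes the median difference was -0.12, with 26.1% lower and 3.63% higher, and in the longest 10% it was 0.10, with 4.82% lower and 29.6% higher. In DMSO the same groups of genes had medians of 0.01 and -0.05. Within sgNS, the shortest 10% changed with DOX by a median of 0.08 and the longest by -0.10, and within the guide lines the medians were -0.04 and 0.03 (sgZBTB11 #1) and -0.06 and 0.05 (sgZBTB11 #2). With the length trend removed from the counts, the cytosolic ribosome had a median of -0.24 and 72 of 79 lower, complex I subunits -0.23 and 22 of 37, complex III -0.25 and 9 of 15, complex IV -0.15 and 18 of 34, ATP synthase -0.17 and 14 of 20 and the mitochondrial ribosome -0.12 and 41 of 82. The TCA cycle and pyruvate entry had a median of -0.13 and 16 of 34 lower, and its net median was -0.18 in place of -0.15. That correction was chosen after seeing the data. ZBTB11, whose length is 2.08 times the median, then differed by -0.74. The part of length in each list's difference was not tested further.

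**Figure D5:**
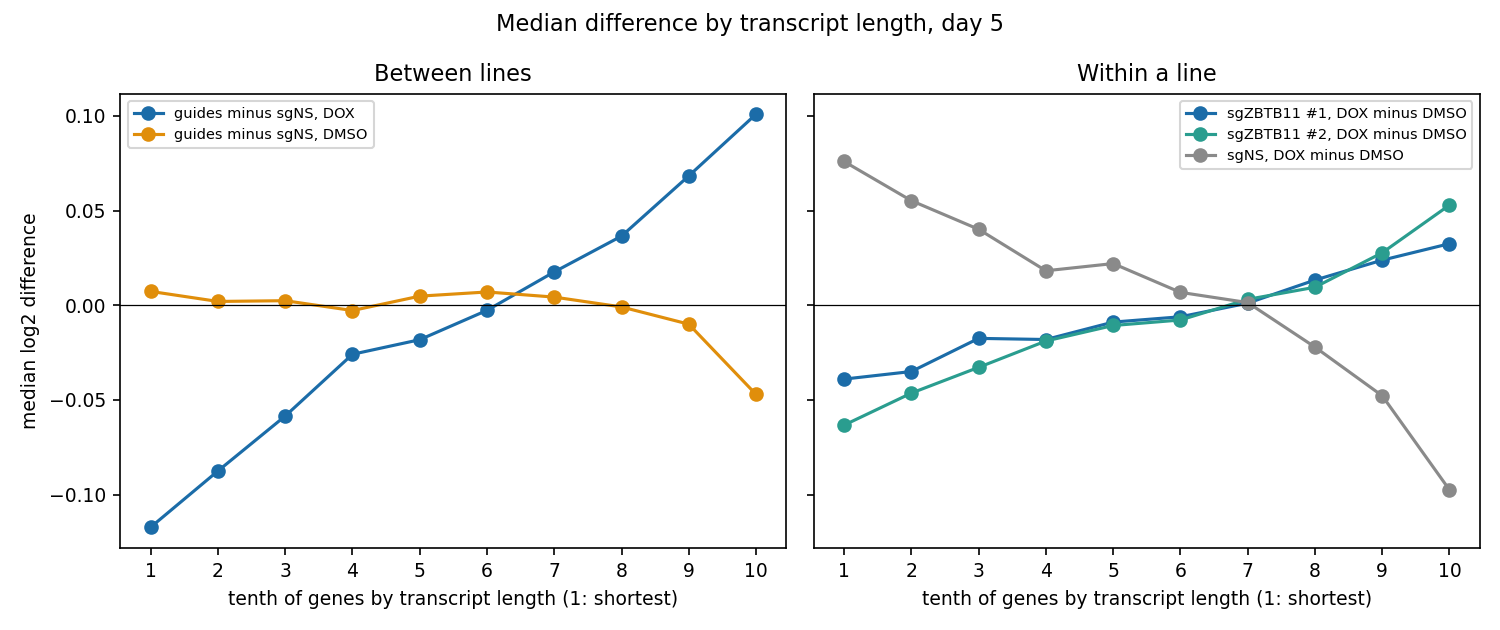
Median log2 difference of all genes tested at day 5 in 10 equal groups by transcript length, shortest to longest, for the guide lines over sgNS in DOX and in DMSO (left) and for DOX over DMSO within each of the 3 lines (right). The DOX difference climbs with length and runs between -0.12 and 0.10, the DMSO difference stays between -0.05 and 0.01, and the sgNS line runs opposite to the guide lines.

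Of 31 genes of glycolysis and the hypoxia response, 12 were lower and 2 higher, with a median of -0.11. The lower ones included glycolytic enzymes: PGAM1, phosphoglycerate mutase, was at 129.9 to 137 CPM in guide DOX libraries, against 199.5 to 206 CPM in sgNS DOX libraries (-0.60), and PGK1 (-0.54), TPI1 (-0.52) and ENO1 (-0.45) were lower too, with differences in DMSO of -0.14 for PGAM1 and -0.04 to 0.02 for the other 3. Within the lines these enzymes changed with DOX by 0.28 to 0.40 in sgNS, -0.15 to -0.05 in sgZBTB11 #1 and -0.27 to -0.10 in sgZBTB11 #2. Genes of RAS-MAPK output, which growth factor receptors drive, had 9 of 25 higher and 4 lower, with a median of 0.04. DUSP6, a phosphatase that damps ERK and is itself an ERK target, was at 299.8, 309 and 302 CPM in sgZBTB11 #1 DOX libraries and 309, 298 and 317 CPM in sgZBTB11 #2 DOX libraries, against 219.5, 208 and 214 CPM in sgNS DOX libraries. It differed by 0.52 (SE 0.024, adjusted p = 6.54e-24), and by 0.17 in DMSO. Within the lines DUSP6 changed with DOX by 0.0025 in sgZBTB11 #1, 0.13 in sgZBTB11 #2 and -0.28 in sgNS. ETV1 (0.37) and SPRED1 (0.32) were also higher, both with calls lost in at least 1 alternative run, while AREG, a ligand of the EGF receptor, was lower (-0.79), at 20.6 to 24 CPM in guide DOX libraries, against 36.9 to 40.1 CPM in sgNS DOX libraries, and differed by -0.26 in DMSO. Within the lines AREG changed with DOX by 0.13 in sgZBTB11 #1, -0.41 in sgZBTB11 #2 and 0.39 in sgNS. Of 40 genes of G2 and mitosis, 16 were lower and 1 higher, with a median of -0.12, among them UBE2S (-0.45), PTTG1 (-0.35), CCNB2 (-0.31) and CENPA (-0.31). DNA replication had 9 of 45 genes lower and 7 higher, p53 targets 5 of 21 lower (3 without sgNS DOX replicate 1 or with DESeq2) and 6 higher, and NRF2 targets 6 of 21 lower and 3 higher, where 15.9% of all genes were lower and 13.2% higher, so DNA replication stood near the shares of all genes.

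Interferon-response and lysosomal genes were lower in the induced guides and in DMSO. Of 29 interferon-response genes, 18 were lower and 1 higher, with a median of -0.24, and in DMSO 15 were lower, with a median of -0.21. BST2 (-0.70 in DOX, -0.63 in DMSO), which tethers virions at the membrane, XAF1 (-0.68 and -0.58) and IFITM1 (-0.54 and -0.45) were lower in both. HLA-B, an MHC class I chain, was at 132 to 166 CPM in guide DOX libraries, against 223 to 231 CPM in sgNS DOX libraries (-0.62), and its DMSO difference was -0.06. Within the lines HLA-B changed with DOX by 0.08 in sgZBTB11 #1, -0.26 in sgZBTB11 #2 and 0.48 in sgNS. Of 30 genes of lysosome and autophagy, 17 were lower and 1 higher, with a median of -0.16 in DOX and -0.13 in DMSO. The cathepsins CTSZ (-0.66), CTSB (-0.54), CTSD (-0.50) and CTSL (-0.39) were the most different members, and in DMSO they differed by -0.28, -0.42, -0.53 and -0.53. Of 18 NF-kB and cytokine genes, 7 were lower and 2 higher, and without sgNS DOX replicate 3 the number lower was 4. CXCL1, a neutrophil-attracting chemokine, was at 15.8 to 18.6 CPM in guide DOX libraries, against 29.6 to 31.98 CPM in sgNS DOX libraries (-0.87), and CXCL8 differed by -0.84 in sgZBTB11 #1 and -0.27 in sgZBTB11 #2. CXCL1, CXCL2 and CXCL3 are close paralogs, and their counts depend on how shared reads were split.

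Of 33 genes of the ATF4 stress response, 9 were lower and 5 higher, of 23 genes of cholesterol synthesis 8 were lower and 2 higher (2 and 3 on log2(TPM + 1)), and of 17 genes of fatty acid synthesis 2 were lower and 4 higher. Adhesion and extracellular matrix genes had 3 of 27 lower and 2 higher, and keratins and epithelial junctions 5 of 18 lower and 3 higher. The adhesion and matrix counts lay under the 15.9% lower and 13.2% higher of all genes.

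By chromosome, the largest share of higher genes was on chromosome 13, where 65 of 194 protein-coding genes were higher (33.5%) and 13 lower (6.7%), with a median of 0.11 in DOX and 0.09 in DMSO. On the other chromosomes 7.55% to 24.6% of such genes were higher and 13.9% to 27.5% lower. Among all genes tested, of any type, these shares were 13.2% and 15.9%. The genes of chromosome 13 of lower and of higher coordinate, 97 each, had medians of 0.13 and 0.11 in DOX and 0.09 and 0.11 in DMSO. Chromosome 16 had a median of 0.05 in both, and chromosomes 5 and 9 medians of -0.05 in DOX and -0.07 and -0.04 in DMSO. Between the guides, sgZBTB11 #2 DOX libraries stood at a median of -0.09 on chromosome 6 and 0.07 on chromosome 8 relative to sgZBTB11 #1 DOX libraries. DNA copy number was not measured.

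The same contrast at earlier times used other libraries and gave different patterns. Induced guides differed from induced sgNS at 4695 of 15623 genes at 5 hr (30.1%), 4299 of 16275 at day 1 (26.4%), 1330 of 16645 at day 3 (7.99%) and 4896 of 16809 at day 5 (29.1%). Of all genes, 13.8% were higher and 16.2% lower at 5 hr, 13% and 13.4% at day 1 and 3.5% and 4.49% at day 3. The count was lowest at day 3, where ZBTB11 itself differed most (-0.81). The cytosolic ribosome had 62 of 79 members higher at 5 hr, 74 lower at day 1, 2 higher and none lower at day 3 and 76 lower at day 5, with medians of 0.16, -0.20, 0.03 and -0.38. Complex I subunits had medians of 0.08, -0.23, -0.04 and -0.37 in that order of times, with 2, 32, 7 and 31 of 37 lower. The mitochondrial ribosome had medians of 0.05, -0.17, -0.03 and -0.19, with 6, 50, 8 and 54 of 82 lower. Messages of mitochondrial DNA had medians of 0.09, -0.39, 0.09 and 0.13. The shortest 10% of transcripts had medians of 0.12, -0.22, -0.01 and -0.12, and the longest -0.08, 0.13, 0.01 and 0.10. The list medians and the median of the shortest transcripts thus had the same sign at 5 hr, day 1 and day 5 for complex I subunits, the mitochondrial ribosome and the cytosolic ribosome. Interferon-response genes had 16 of 30, 19 of 30, 11 of 30 and 18 of 29 lower, and the ATF4 stress response had 30 of 34 higher at 5 hr, 7 at day 1, 2 at day 3 and 5 of 33 at day 5. Single genes with a standing line difference kept their sign throughout: COL6A3 differed by 1.28, 1.42, 2.02 and 2.88 and DHRS2 by -1.54, -2.30, -2.68 and -2.27. COX14 differed by -0.02, -0.27, -0.13 and -0.99 and MRPL33 by 0.12, -0.30, -0.07 and -0.88. COQ3 and MRPL48 are named here after their values at these times were seen. COQ3 passed at day 1 (-0.21), day 3 (-0.64) and day 5 (-0.56) and MRPL48 likewise (-0.16, -0.51 and -0.66), and within the lines both fell with DOX in sgZBTB11 #2 (-0.76 and -0.52), with -0.32 and -0.42 in sgZBTB11 #1 and 0.06 and 0.14 in sgNS.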

How the data were processed

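RNA-seq of 70 libraries in 24 groups was deposited as 2 tables of 78932 genes, the authors' expected counts and TPM, made with RSEM on GRCh38.p14 per the submitters' processing notes. Poly(A) RNA was used, per the labels' protocols, and neither the aligner nor the strand setting is given in the sources used here. The deposited expected counts (5.13% of values not whole) were rounded, and the 17 libraries of day 5 were fitted together with edgeR 4.0.16 in R 4.3.3 (TMM scaling, low-count filter, robust quasi-likelihood test, Benjamini-Hochberg adjustment, threshold 0.05). The main contrast was the mean of both guides minus sgNS in DOX, with each guide weighted equally, beside the same contrast in DMSO and the difference of both, called net. Total counts were 12747313 to 20627648. The deposited TPM gave an alternative in limma 3.58.1 on log2(TPM + 1), and DESeq2 1.42.0 was another.

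Named genes were the 10 largest calls per direction with a mean of at least 5 CPM and no overlap between groups, the 8 largest that also passed net but not in DMSO, ZBTB11 with 3 neighbours per side, and up to 4 members of each of 17 gene lists. The members, lists and rules were chosen with earlier results of these data known, and the DOX against DMSO changes within each line were added after seeing the data. Chromosomes were known for 14139 of the genes tested (84.1%), promoters are from RefSeq (GRCh38.p14), and length is the ratio of counts to TPM. In 16 pairs of replicates none held identical values, and counts differed beyond sampling noise (chi-square per degree of freedom 1.34 to 1.81, but 3.03 and 3.49 in the pairs that hold sgNS DMSO replicate 2). Tested on simulated data of 16562 genes, the DOX contrast recovered 68% of 50 genes changed by 0.25 (log2), 92% at 0.5 and 98% at 1, with 8 false calls, and the net contrast 44%, 76% and 98%, with 12. The simulation gave all groups the same mean levels apart from the changed genes, which were picked above a minimum mean CPM. It held no line differences and no length trend, so it cannot give the rate of false calls in the real data. One marker gene of the line is not reported here.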

Additional observations from a re-analysis of the deposited data

Results flagged for a closer look

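The difference between sgZBTB11 #2 and sgZBTB11 #1 DOX libraries was itself tested (edgeR quasi-likelihood test), and 41 of the named genes passed. These genes were picked for large differences, so their share is not set beside that of all genes. Values are log2 differences of sgZBTB11 #2 minus sgZBTB11 #1. ZBTB11, the target, was lower with sgZBTB11 #2 by a difference of -0.36. Among genes with a standing line difference, DKK1 differed by -1.22, COL6A3 by -0.86, PIEZO2 by -0.80, DHRS2 by -0.42 and AKR1B1 by -0.23, while CFI differed by 1.55, RYR2 by 1.05, SULT1A1 by 0.31 and LINC00370 by 0.18. CFI differed from sgNS by -2.32 with sgZBTB11 #1 and by -0.77 with sgZBTB11 #2.

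Mitochondrial genes went both ways between the guides. SDHAF3 differed by -0.58, COQ3 and TOMM7 by -0.49, NDUFAF4 by -0.40, MRPL36 by -0.38, UQCRH by -0.26, TIMM9 by -0.21 and UQCRFS1 by -0.20. The messages of mitochondrial DNA MT-ND3, MT-ND4L, MT-ATP6 and MT-ND1 differed by -0.20, -0.19, -0.18 and -0.11. NDUFS4 differed by 0.25, NDUFB11 by 0.24 and COX8A by 0.20. Ribosomal protein genes and related pseudogenes were lower with sgZBTB11 #2, RPL23AP42 by a difference of -0.42, RPL7 of -0.25, RPL10A of -0.23 and RPS27A of -0.22.

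Among the rest, GCSHP5 differed by -0.66 and POLE4 by -0.43. SLC5A3 differed by 0.23 and INKILN by 0.32. Of the interferon genes, XAF1 differed by 0.43, IFITM1 by 0.26 and HLA-B by -0.24. CXCL2 differed by 0.73, CXCL8 by 0.57, CTSD by 0.27, CTSB by 0.23 and CTSZ by 0.23. With 1 line per guide, a difference between guides and a standing difference between lines cannot be told apart.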

How the results depend on the processing

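The count of genes past the threshold in induced guides (4896) was 4537 to 4929 with another scaling, no low-count filter, only the 9 DOX libraries, all 70 libraries in 1 fit, genes of mitochondrial DNA left out or the length and GC trends removed, 3798 with DESeq2 and 3676 with limma on log2(TPM + 1). With the length trend alone removed, 2027 genes were higher and 2476 lower, which together lie under that range. ZBTB11 stayed lower in each of these runs, at -0.74 to -0.53. The run with the length and GC trends removed together was not planned in advance. Over all genes and in either direction, the counts that moved by over 1.5 times were those of sgZBTB11 #1 against sgNS on TPM (2790), of sgZBTB11 #2 against sgZBTB11 #1 with DESeq2 (1201) and of the net test on TPM (4849), and the TPM filter and its shifted median differ by construction. On TPM, lower calls in the induced guides were 1544 in place of 2678, and the split of higher and lower calls changed for DMSO (231 and 5333), net (4487 and 362), sgZBTB11 #2 against sgNS (2544 and 1204) and sgZBTB11 #2 against sgZBTB11 #1 (1244 and 219). Lower members on TPM also numbered 7 in place of 16 for G2 and mitosis, 4 in place of 9 for DNA replication, 1 in place of 4 for RAS-MAPK output, 3 in place of 5 for p53 targets and 1 in place of 3 for adhesion and extracellular matrix, besides the list counts given in the report.

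Leaving out 1 library at a time gave 4063 to 5002 calls for both guides against sgNS, 3545 to 4397 for sgZBTB11 #1, 3717 to 4564 for sgZBTB11 #2, 1316 to 1932 for sgZBTB11 #2 against sgZBTB11 #1, 3133 to 3988 in DMSO and 2758 to 3232 net (3468 and 3213 without sgNS DMSO replicate 2), and ZBTB11 at -0.72 to -0.64. Of 98 other named genes that passed, 90 stayed past the threshold in every run, 8 did not in at least 1 (RYR2, MT-ND3, TMEM70, NDUFAF4, PDK2, ETV1, SPRED1 and CXCL3) and none changed sign. Deviations of same-numbered libraries had r of -0.04 to 0.17 over 9 pairs. The 2 above 0.1 were both between sgZBTB11 #2 and sgNS (0.17 each), where different-numbered pairs went down to -0.19. With the replicate number as a block the counts were 4890 for both guides, 4283, 4466 and 1835 for the comparisons of single guides, 3891 in DMSO and 3219 net, with ZBTB11 at -0.67. Whether lines were pools or clones is not given, and the precision of low genes is limited by depth.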
